A study of Mus musculus with 8 samples.

Results

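Plvap-Igf1-Nlgn1 endothelial nuclei of the mouse kidney were the 3531 nuclei, among 16164 endothelial nuclei and 81391 nuclei that passed quality control, that combined transcripts of Plvap, Nlgn1, Sema3d and Igf1 and lacked those of Ehd3 and Sox17. An endothelial nucleus had at least 1 UMI (unique molecular identifier, 1 counted transcript) in at least 2 of the 4 genes Flt1, Ptprb, Emcn and Pecam1. A member of the population also carried at least 3 UMIs summed over the 4 markers, from at least 2 of them, and 0 UMIs of both Ehd3, a marker of glomerular endothelium, and Sox17, a marker of arterial endothelium. The members made up 21.8% of the endothelial nuclei and 4.34% of all nuclei. They had been proposed as venous-like, and the markers of veins that the rule did not use are given below as a check of that name.

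The study sequenced single nuclei from 8 frozen kidneys, 1 library per mouse, to follow kidney transcripts by time of day and with a tubule clock removed. All mice were males on a C57BL/6J background that carried floxed Bmal1 (Arntl) alleles (Bmal1 lox/lox). All drank water with 2 mg/ml doxycycline and 20 mg/ml sucrose for 2 weeks from 8 weeks of age, and kidneys were taken at 14 weeks. The cKOt mice also carried the Pax8-rtTA and LC1 transgenes, which drive Cre in renal tubules in the presence of doxycycline, and the Ctrl mice were littermates without them, so that endothelial cells were not the target of the deletion in either genotype. Each genotype was sampled at ZT4, in the light phase, and at ZT16, in the dark phase of the day, with 2 mice in each of the 4 groups. Values per library are given below in the order Ctrl replicate 1, Ctrl replicate 2, cKOt replicate 1, cKOt replicate 2.

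Blood vessels of the kidney differ by segment: arteries and descending vasa recta carry Sox17, glomerular capillaries carry Ehd3, and the fenestrated peritubular capillaries and the veins that drain them carry Plvap, which builds the diaphragms of fenestrae and caveolae. Igf1 encodes insulin-like growth factor 1, Sema3d a secreted guidance cue that acts through neuropilins and plexins, and Nlgn1 neuroligin-1, an adhesion protein best known from synapses that binds neurexins. The circadian clock in most cells is a loop in which Bmal1 with Clock or Npas2 drives Per, Cry, Nr1d and Dbp genes through E-boxes, while the Nr1d proteins repress Bmal1 and Npas2 in turn.

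The 8 libraries held 82784 barcodes, of which 8758 to 10975 nuclei per library passed quality control with 36548873 to 54500820 UMIs per library. The members contributed 309 to 527 nuclei and 916480 to 1682766 UMIs per library, 10934982 UMIs in all. Their median depth was 2108 to 2781 UMIs per nucleus, against 1880 to 3020.5 UMIs in the other endothelial nuclei of the same libraries. A doublet caller (Scrublet) marked 411 members (11.6%), 10.6% of the other endothelial nuclei and 5.37% of all nuclei. Of the members, 4 barcodes occurred in more than 1 library, and 823 did among all nuclei.

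By group, there were 341 and 498 members in Ctrl at ZT4, 352 and 511 in cKOt at ZT4, 475 and 518 in Ctrl at ZT16, and 309 and 527 in cKOt at ZT16. As shares of the endothelial nuclei these were 18.5%, 23.9%, 19.6% and 22.9% at ZT4 and 21.8%, 23.0%, 19.4% and 24.0% at ZT16. The ranges of the time points and of the genotypes overlapped. The mean share was 22.1% ± 1.97 (SD, n = 4) at ZT16 and 21.2% ± 2.56 at ZT4, a difference of 0.847 percentage points that did not pass a two-sided exact permutation test over libraries (p = 0.60), for which the smallest possible p was 0.0286. Between genotypes the difference, cKOt minus Ctrl, was -0.306 percentage points (p = 0.914, same exact test). Leaving out 1 library at a time gave time differences of -0.0511 to 1.73 percentage points, the lowest without Ctrl ZT4 replicate 1, and genotype differences of -1.40 to 0.380 percentage points, so that neither had a settled sign. With each nucleus thinned to 1000 UMIs, the mean share was 15.3% ± 1.77 in Ctrl and 13.5% ± 2.03 in cKOt, a difference of -1.83 percentage points (p = 0.20, same exact test).

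The threshold cut a continuous range of marker counts. Of the members, 415 had exactly 3 marker UMIs and 423 had exactly 4, while the median was 8 and the highest was 99. Just outside, 373 nuclei had 2 marker UMIs from 2 genes, 1182 had 3 or more from a single marker, 1430 were left out only for a UMI of Ehd3 or Sox17, and 78 only for having 1 of the 4 endothelial genes. Plvap was found in 93.4% of the members, Sema3d in 76.6%, Igf1 in 63.4% and Nlgn1 in 48.7%. All 4 markers were found together in 24.1% of the members (18.2% to 31.3% over libraries), Plvap with Sema3d alone in 22.4%, and Plvap with Sema3d and Igf1 in 16.0%. Where it was found, Nlgn1 had a median of 4 UMIs per nucleus and up to 65.

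Because the rule used them, the levels of the marker genes in the members are a description only. Plvap averaged 1044 ± 83.6 CPM (SD, n = 8 libraries; UMI counts scaled to library size with TMM factors) in the members and 457 ± 52.9 CPM in the other endothelial nuclei. Nlgn1 averaged 1057 ± 69.9 against 129 ± 35.4 CPM, Sema3d 618 ± 76.2 against 102 ± 10.5 CPM, and Igf1 632 ± 148 against 90.1 ± 20.6 CPM. To see whether the markers themselves moved with time, they were tested over all endothelial nuclei, where 195 of 16891 genes were called by time (1.15%). None of the 4 passed: the change from ZT4 to ZT16 was log2 0.13 ± 0.11 (SE; adjusted p = 0.689) for Plvap, -0.13 ± 0.10 (0.662) for Nlgn1, -0.01 ± 0.13 (0.989) for Sema3d and -0.30 ± 0.17 (0.497) for Igf1, by edgeR's quasi-likelihood test with Benjamini-Hochberg adjustment. Ehd3 (0.35 ± 0.11, adjusted p = 0.172) and Sox17 (0.27 ± 0.12, 0.377), which excluded nuclei from the members, did not pass either. Their unadjusted p were 0.00736 and 0.0474. Flt1 (0.27 ± 0.10) and Pecam1 (-0.19 ± 0.09) were among the genes that chose the endothelial nuclei. Their log2 changes over those nuclei are thus a description only. The part of such shifts in the choice of members was not tested.

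Beyond the rule, the members were set apart from the other endothelial nuclei by genes of cell guidance and matrix. These levels are described without a test, since nuclei chosen by marker genes differ in whatever goes with those markers. The highest ratios were taken from genes found in at least 10% of the members, a filter that low genes could pass only through the members, so the genes are examples and no count over them is given. Sema3a, a guidance cue of the same family as Sema3d, led at 92.0 ± 18.6 CPM (SD, n = 8; plain CPM, without TMM factors) against 18.4 ± 2.96 CPM, a ratio of 5.01 (3.63 to 7.13 over libraries). Flrt2, a membrane protein that binds Unc5 guidance receptors, stood at 407 ± 63.7 against 82.8 ± 17.5 CPM (ratio 4.92). The organic anion transporter gene Slco1a4 stood at a ratio of 4.78 and the guidance receptor gene Robo3 at 3.81. Thsd4, an extracellular matrix protein linked to fibrillin, averaged 527 ± 106 against 145 ± 22.9 CPM (3.63), and the leptin receptor gene Lepr 233 ± 45.8 and 73.5 CPM (3.17). Ranges of members and other nuclei did not overlap for any of these 4 genes with levels given. Against the Ehd3-positive nuclei alone, the ratios were lower, at 2.74 for Sema3a, 2.44 for Flrt2, 1.86 for Slco1a4, 2.81 for Robo3, 2.18 for Thsd4 and 2.38 for Lepr. Slco1a4 was found in 14.3% of the members and 3.13% of the other endothelial nuclei and Flrt2 in 43.0% and 10.5%. Others among the 20 highest ratios were Gpr182, Tmem200a, Gfpt2, Mmp16, Fam49a, 4930402D18Rik, Adgrg6, Tmtc1, Mmp11, Gm6213, 9330175M20Rik, Rasa4 and Plac8, at ratios of 2.58 to 3.54, and at 1.38 (Gm6213) to 2.48 (Gfpt2) against the Ehd3-positive nuclei.

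Of these genes Tmtc1 was the most often found: it was seen in 79.2% of the members and in 49.4% of the other endothelial nuclei, at 1148 ± 173 against 427 ± 85.0 CPM (ratio 2.69). The lowest ratios were taken in turn from genes found in at least 10% of the other endothelial nuclei. Esm1, a proteoglycan of angiogenic capillary cells, was at 64.3 ± 19.7 against 221 ± 41.8 CPM, a ratio of 0.290. The remaining genes of the 10 lowest ratios were Gzmk, Gm30382, Sntb1, Prdm1, Gpihbp1, Btnl9, Igfbp3, Npr3 and Kitl, at 0.274 to 0.381. Gpihbp1, which anchors lipoprotein lipase to capillaries, stood at 28.9 ± 11.5 against 83.7 ± 29.4 CPM, and Kitl, the ligand of Kit, at 137 ± 32.0 against 360 ± 36.4 CPM.

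**Figure D1:**
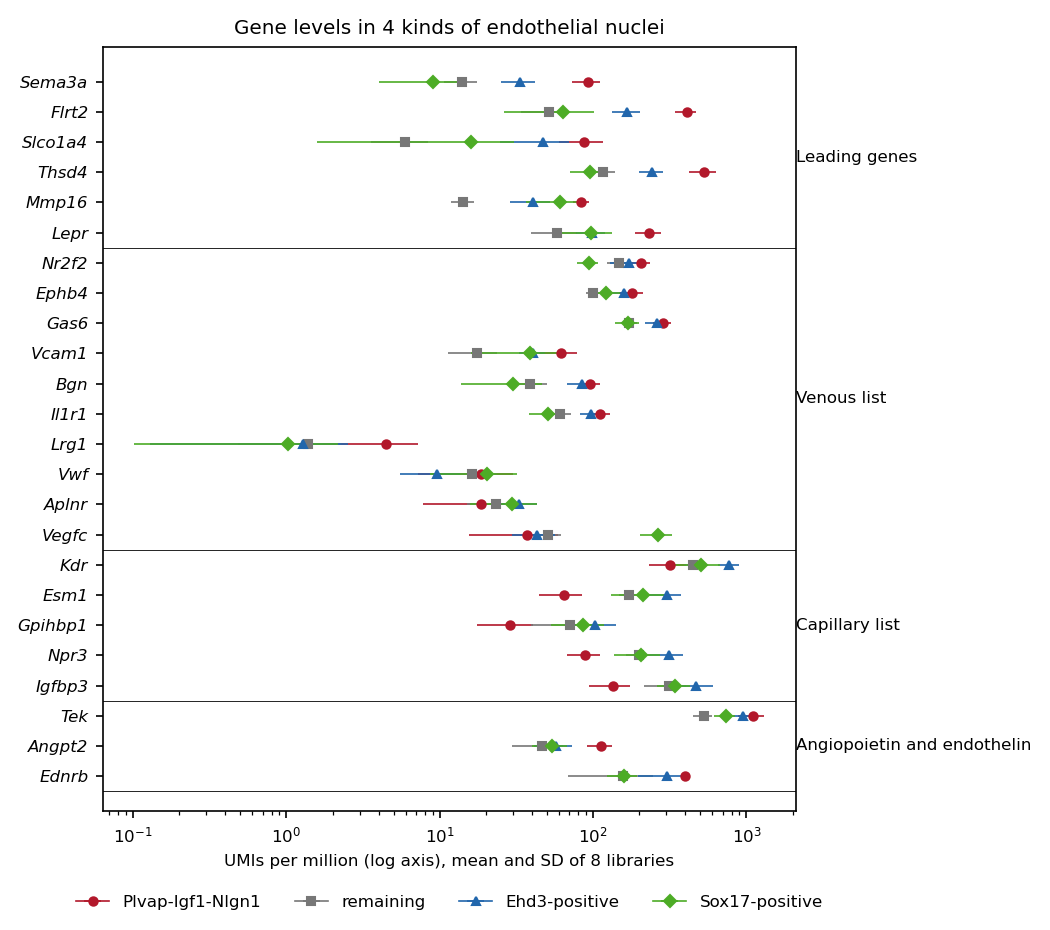
Gene levels in the members (red circles), the remaining endothelial nuclei (grey squares) and the Ehd3-positive (blue triangles) and Sox17-positive (green diamonds) nuclei, in CPM on a log axis, as mean and SD of 8 libraries (lower whiskers are cut short where the SD nears or exceeds the mean). Sema3a, Flrt2 and Thsd4 were highest in the members and Esm1, Gpihbp1, Npr3 and Igfbp3 lowest, while Ehd3-positive nuclei came near the members for Nr2f2, Ephb4, Gas6 and Il1r1.

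The label venous-like was checked against 12 vein markers that the rule did not use, and the result was mixed. Over 15824 genes outside the rule with a mean of both levels of at least 1 CPM, 4.75% were higher in the members in 8 of 8 libraries and 7.84% lower, the background for the counts that follow. Of the 12 genes, 7 were higher in the members in 8 of 8 libraries: Nr2f2, the transcription factor of venous identity, at 205 ± 30.8 against 146 ± 23.9 CPM (ratio 1.41), Ephb4, the venous receptor of ephrin-B2, at 180 ± 31.9 against 120 ± 15.3 CPM, and Gas6 (1.44), Vcam1 (2.35), Bgn (1.92), Il1r1 (1.59) and Lrg1 (3.43). Lrg1 was low, at 4.46 ± 2.72 CPM. For these genes other than Lrg1, the ratios against the Ehd3-positive nuclei alone were smaller, at 1.20 for Nr2f2, 1.14 for Ephb4, Bgn and Il1r1 and 1.51 for Vcam1, and Gas6 lay below these. Vwf, the clotting factor stored in venous endothelium, was at 18.7 ± 11.5 against 14.8 ± 6.18 CPM and higher in 6 of 8 libraries. The 2 markers of postcapillary venules were near 0, with Selp in 0.396% and Ackr1 in 0.0283% of the members. Aplnr was lower in 7 of 8 libraries (ratio 0.693) and Vegfc in 8 of 8 (0.513). Summed, the 12 vein genes stood at 1019.5 CPM in the members and 726 CPM in the other endothelial nuclei. The 9 pan-endothelial genes outside the rule summed to 8452 and 6342 CPM, so a higher sum was not particular to the vein genes. By the rule, the other endothelial nuclei also held every Sox17-positive nucleus, so these levels too are a description. As veins and peritubular capillaries share several of the vein genes, the population is called below by its genes and not by a vessel.

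Markers of the other vessel segments are given below by list, with the number of libraries. The rule put every endothelial nucleus with a UMI of Sox17 or Ehd3 among the other endothelial nuclei. Lower arterial and glomerular genes in the members were thus in part set by the rule and are a description. Of the 12 arterial genes outside the rule, 11 were lower in 8 of 8 libraries, such as Efnb2, the arterial ephrin, at 92.3 ± 21.7 against 235 ± 15.4 CPM (ratio 0.392), while Jag1 was lower in 7. Of the 7 glomerular genes outside the rule, Tbx3 and Smad6 were lower in 8 of 8 libraries, Sost, Pi16 and Lpl in 7 and Gata5 in 6, and Hecw2 was higher in 8. Of the 9 genes of fenestrated capillaries outside the rule, Kdr, Esm1, Gpihbp1, Npr3 and Igfbp3 were lower in 8 of 8 libraries, Rgcc was higher in 8 (ratio 1.36), and Cd36, Plpp1 and Cyp4b1 lay on both sides. Kdr, the main VEGF receptor, stood at 316 ± 85.6 against 557 ± 78.2 CPM. Of the 7 lymphatic genes, Reln (68.7 ± 26.4 against 19.3 ± 3.39 CPM) and Mmrn1 (15.2 ± 6.47 against 6.77 ± 3.40 CPM) were higher in 8 of 8 libraries, Ccl21a (20.9 ± 16.2 against 5.50 ± 3.76 CPM) and Prox1 (40.6 ± 10.6 against 27.5 ± 5.50 CPM) in 7, Flt4 in 6 (ratio 1.07) and Pdpn in 5 (1.23), while Lyve1 was near 0 (0.345 ± 0.693 CPM). Their summed level was 240 CPM in the members and 147 CPM in the other endothelial nuclei. In all, 28 members (0.793%; 1 to 6 per library) had UMIs of at least 2 of Prox1, Mmrn1 and Ccl21a. Every member had an endothelial gene by the rule, and 9 endothelial genes outside it were also present, among them Adgrl4 at 2253 ± 351 against 1222 ± 190 CPM, higher in 8 of 8 libraries, and Mecom at 605 ± 155 against 1158 ± 97.8 CPM, lower in 8 of 8.

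Of 17 other genes of the IGF pathway, Igfbp3, Igfbp5 and Pik3r1 were lower in the members in 8 of 8 libraries, and 13 of the others lay on both sides. Igfbp5 and Igfbp3, secreted proteins that bind IGF1, were at 534 ± 140 against 1341 ± 250 CPM and 135 ± 40.0 against 364 ± 89.0 CPM. The receptor genes lay near the level of the other nuclei, with ratios of 0.912 for Igf1r, 0.842 for Insr and 1.09 for Igf2r. Around Sema3d, Sema3a was higher, whereas Sema3g (ratio 0.388), Sema7a (0.334), Sema5a (0.581), Sema6d (0.644), Sema3c (0.748) and the receptor gene Nrp1 (802 ± 125 against 1149 ± 158 CPM) were lower in 8 of 8 libraries. Plxnd1, the plexin of endothelial cells, was higher in 8 of 8 (211 ± 28.1 against 166 ± 23.4 CPM).

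Around Nlgn1, the neurexin gene Nrxn3 was at 57.5 ± 26.7 CPM in the members and 64.0 ± 21.1 CPM in the other endothelial nuclei and the related Nlgn2 at 7.50 ± 2.55 against 8.09 ± 1.06 CPM, and neither was on one side in 8 libraries. Of the 9 VEGF and angiopoietin genes outside the rule, Tek and Angpt2 were higher in the members in 8 of 8 libraries, Vegfa, Vegfc, Angpt1 and Kdr were lower in 8, and 3 lay on both sides. Of the 13 flow-responsive and vasoactive genes, Ednrb and Calcrl were higher in 8, Edn1 was lower in 8 (ratio 0.246), and 10 lay on both sides. The levels were, for Tek, the angiopoietin receptor, 1096 ± 215 against 677 ± 77.2 CPM, for its ligand gene Angpt2 112 ± 21.5 against 50.1 ± 11.7 CPM, for Ednrb, the endothelin B receptor, 398 ± 24.8 against 199 ± 80.6 CPM, and for Calcrl, the adrenomedullin receptor, 589 ± 81.6 against 436 ± 44.5 CPM.

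Gene levels were also described by the presence of Nlgn1, a gene of the rule. The 1718 members with a Nlgn1 UMI and the 1813 without one had median depths of 2239.5 and 2507 UMIs, and the latter had to reach 3 marker UMIs from Plvap, Sema3d and Igf1 alone, so the 2 sets were admitted on different grounds and the values below are a description. With Nlgn1, the matrix protease gene Mmp16 averaged 149 ± 27.1 CPM (SD, n = 8) against 27.6 ± 16.8 CPM without it, Slco1a4 142 ± 58.2 against 41.2 ± 19.9 CPM, and Thsd4 806 against 278 CPM. The venous genes Nr2f2 (241 ± 43.1 against 174 ± 25.0 CPM), Vcam1 (91.4 ± 31.3 against 34.6 ± 8.01 CPM), Bgn (ratio 1.71) and Il1r1 (1.24) were also higher with Nlgn1 in 8 of 8 libraries, as was Reln (ratio 2.99). Of the other venous genes, Gas6 was higher in 7 libraries (1.19), Ephb4 in 5 (1.05) and Lrg1 in 4, whereas Aplnr was lower in 8, Vwf in 7 (14.3 against 23.1 CPM) and Vegfc in 6 (0.712), and Selp and Ackr1 were near 0.

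Of the 9 capillary genes, Kdr, Gpihbp1, Esm1, Npr3, Igfbp3 and Plpp1 were lower with Nlgn1 in 8 of 8 libraries and Rgcc in 6, while Cd36 was higher in 6 and Cyp4b1 in 4 (ratio 1.04). Without Nlgn1, Kdr averaged 444 ± 125 CPM against 173 ± 48.8 CPM with it, Gpihbp1 48.9 ± 20.1 against 6.81 ± 3.77 CPM, Esm1 101 ± 34.0 against 22.3 ± 14.5 CPM, and Npr3 132 ± 34.8 against 40.5 ± 17.9 CPM. Efnb2 was at 138 ± 40.3 against 41.2 ± 13.6 CPM and Aplnr at 30.2 ± 18.0 against 5.68 ± 6.12 CPM. The lymphatic genes Mmrn1 and Ccl21a stood at 27.3 ± 14.4 and 37.1 ± 31.5 CPM without Nlgn1, and with it at ratios of 0.0781 and 0.0673 to these levels, lower in 8 and 6 of 8 libraries.

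**Figure D2:**
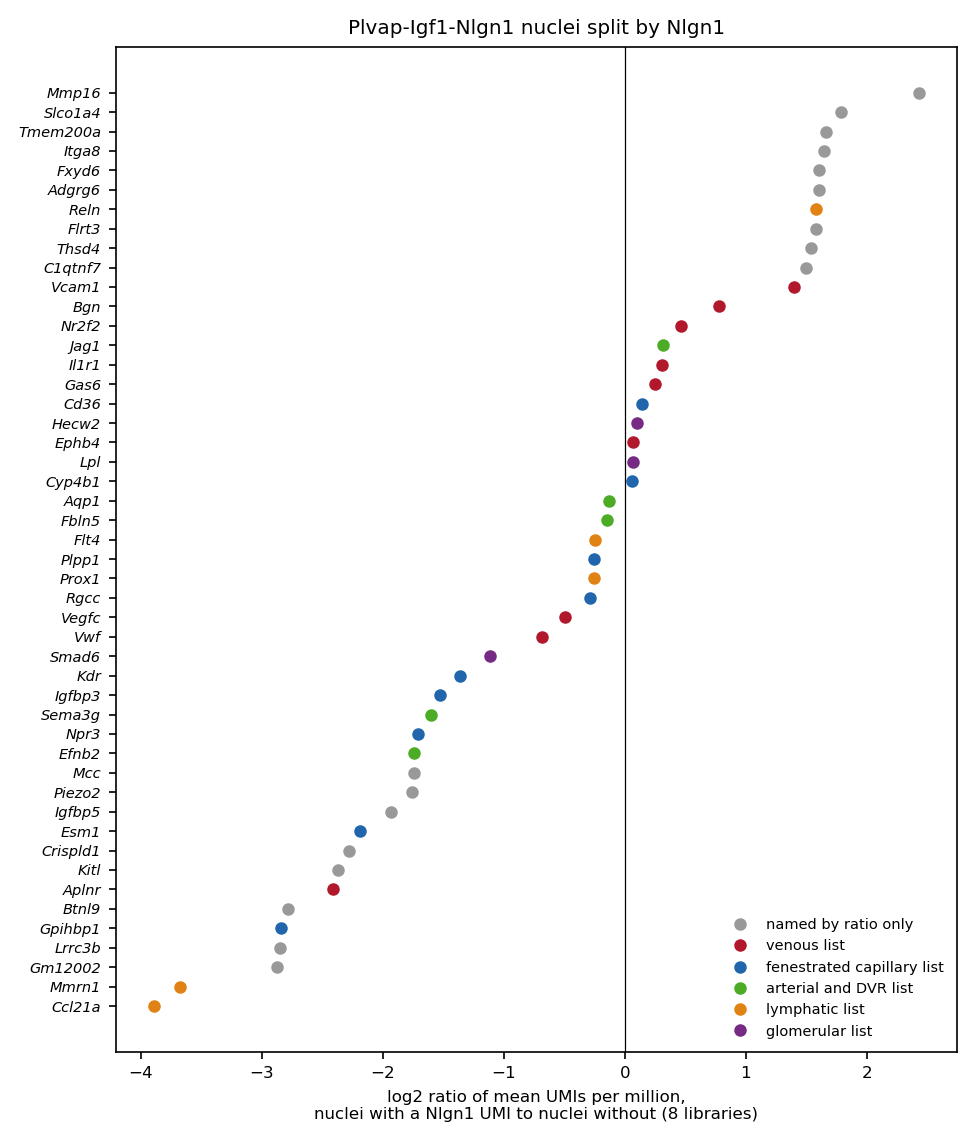
Log2 ratio of the mean level (CPM, over 8 libraries) in members with a Nlgn1 UMI to members without one, with 1 point per gene coloured by its list and grey for genes named by their ratio alone. Mmp16, Reln, Vcam1 and Nr2f2 lie right of 0, and Kdr, Esm1, Npr3, Gpihbp1 and Aplnr lie left of it.

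To ask which genes of the members followed time of day, UMIs were summed over the members of each library and the 4 ZT16 libraries were tested against the 4 ZT4 libraries, averaged over genotypes. In both genotypes the Nr1d genes and Dbp were high at ZT4 and Cry1 at ZT16, while the Npas2 libraries were separated by time in Ctrl and overlapped in cKOt. Of 13120 genes tested, 25 passed an adjusted p of 0.05 (0.191%), 8 higher (0.061%) and 17 lower (0.13%) at ZT16, and 1222 had an unadjusted p under 0.05. For comparison, 2.58% of all genes tested had all 4 ZT16 libraries above all 4 ZT4 libraries and 2.9% had them below. The number of called genes depended on single libraries: it was 8 without Ctrl ZT4 replicate 1 or Ctrl ZT16 replicate 2, 10 without Ctrl ZT4 replicate 2 or cKOt ZT16 replicate 1, 14 without Ctrl ZT16 replicate 1, and 39 without cKOt ZT4 replicate 1.

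Nr1d2, a repressor of the clock loop, was at 136, 162, 120 and 129 CPM in the ZT4 libraries and 46.5, 45.8, 28.7 and 40.2 CPM in the ZT16 libraries, in both genotypes well apart. It fell by 1.77 ± 0.15 on the log2 scale (SE; adjusted p = 9.87e-05). Its relative Nr1d1 was at 22.5, 29.7, 17.9 and 25.8 CPM at ZT4 and, at ZT16, 0.646, 2.02, 2.61 and 3.24 CPM (log2 change -3.55 ± 0.36, adjusted p = 0.000578). No ZT16 library reached the lowest ZT4 library for either gene. Dbp, a transcription factor driven directly by the clock, was at 36.0, 21.4, 7.96 and 15.6 CPM at ZT4 and, at ZT16, 2.58, 2.69, 0 and 1.30 CPM (-3.63 ± 0.48, adjusted p = 0.00494).

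In the opposite phase, Cry1, a repressor of Bmal1 and Clock, was at 2.25, 5.68, 24.9 and 15.6 CPM at ZT4 and, at ZT16, 32.9, 26.9, 47.9 and 47.3 CPM, without overlap (2.01 ± 0.26, adjusted p = 0.00494). Npas2, a partner of Bmal1, was at 6.76, 5.68, 159 and 123 CPM at ZT4 and, at ZT16, 30.4, 45.8, 115 and 135 CPM. Its ZT16 libraries lay above the ZT4 libraries in Ctrl and among them in cKOt, and the averaged change was 1.23 ± 0.21 (adjusted p = 0.0328), and its call was lost in 10 of 18 alternatives, among them the fit without Scrublet doublets (1.47, adjusted p = 0.171). Its level in the members was 32.6% of that in non-endothelial nuclei, beside 35.5% to 44.7% for 6 proximal tubule marker genes. Arntl itself was at 62.0, 41.6, 150 and 92.2 CPM at ZT4 and, at ZT16, 104, 115, 154 and 145 CPM (0.72 ± 0.17, adjusted p = 0.128). Its libraries overlapped through cKOt ZT4 replicate 1.

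Of the 20 clock genes, 18 were abundant enough to test, all but Ciart and Bhlhe41. Npas2 and Cry1 rose with time, Dbp, Nr1d1 and Nr1d2 fell, and 13 did not pass the test, with log2 changes such as 1.33 ± 0.27 for Per2 (adjusted p = 0.0707), -0.26 ± 0.09 for Rora (0.349) and 0.13 ± 0.12 for Clock (0.820). The median log2 change over the 18 was 0.04, beside -0.00293 over all genes tested. In the other endothelial nuclei, the same genes changed by log2 -1.81 for Nr1d2, -3.99 for Nr1d1, -2.82 for Dbp and 1.28 for Cry1, and no clock gene passed the test of a difference between members and other endothelial nuclei.

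Of the time-called genes matched in the promoter table, Cry1 and St6galnac3 carried an E-box before their start, and their windows are shown because both genes had separate time points. The windows are the 250 bases before the annotated start in the RefSeq table for GRCm38.p6, written 5′ to 3′ on the gene's strand, with CACGTG in capitals. Cry1 lies on chromosome 10 (minus strand, chr10:85185055-85185304, motif 60 bases before the start) and St6galnac3 on chromosome 3 (minus strand, chr3:153725134-153725383, motif 97 bases before the start).
Cry1: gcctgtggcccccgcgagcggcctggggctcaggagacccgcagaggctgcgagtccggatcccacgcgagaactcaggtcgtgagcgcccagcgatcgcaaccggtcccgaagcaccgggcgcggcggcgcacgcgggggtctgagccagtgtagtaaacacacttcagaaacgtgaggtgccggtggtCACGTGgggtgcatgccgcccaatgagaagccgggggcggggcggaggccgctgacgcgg
St6galnac3: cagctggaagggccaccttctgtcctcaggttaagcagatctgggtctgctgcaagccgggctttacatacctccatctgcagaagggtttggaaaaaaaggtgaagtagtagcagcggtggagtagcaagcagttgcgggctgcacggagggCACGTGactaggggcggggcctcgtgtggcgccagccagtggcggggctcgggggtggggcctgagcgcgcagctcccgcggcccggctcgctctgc

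The E-box CACGTG, which reads the same on both strands, occurred in 6.02% of 32851 such windows, the RORE core TAGGTCA on either strand in 2.23%, and the D-box TTANGTAA in 2.06%. Neither window above held the other 2 motifs. The windows in the table for Nr1d2, Nr1d1, Dbp, Npas2, Lrmda, Plscr4, Nrxn3, Alk, Ctnna2, Ednrb and the marker genes Igf1, Nlgn1 and Sema3d held none of the 3 motifs. A match of letters is a description, and a window without one says nothing of sites elsewhere.

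Outside the clock list, the genes that moved with time and were at higher levels in the members than in non-endothelial nuclei were led by St6galnac3 and Lrmda. Their levels were 2585% and 114% of the non-endothelial ones, so that Lrmda was little higher in the members. In non-endothelial nuclei they changed by log2 -0.89 ± 0.12 and -0.32 ± 0.10 (SE). St6galnac3, a sialyltransferase gene, was at 1514, 1478, 1388 and 1364 CPM at ZT4 and, at ZT16, 838, 879, 871 and 845 CPM (-0.74 ± 0.09, adjusted p = 0.00261). Lrmda was at 1754, 1669, 1665 and 1732 CPM at ZT4 and, at ZT16, 981, 1020, 905 and 1173 CPM (-0.74 ± 0.10, adjusted p = 0.00597). For both genes every ZT16 library lay below every ZT4 library. Among the genes named here, Nr1d2, Nr1d1, St6galnac3 and Lrmda were called in all 18 alternative analyses, which changed the count model, a filter, the member set or left out a library.

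Outside the clock list, 6 genes rose at ZT16, of which Plscr4, Eln, Heg1 and Crispld1 were above the non-endothelial level. Plscr4, a phospholipid scramblase gene, was at 331, 294, 325 and 264 CPM at ZT4 and, at ZT16, 464, 616, 443 and 516 CPM (0.75 ± 0.12, adjusted p = 0.0281). Eln, encoding elastin, was at 48.4, 43.5, 19.9 and 31.1 CPM and then 63.9, 60.6, 74.0 and 81.7 CPM (1.01 ± 0.17, adjusted p = 0.0288), and Heg1, an endothelial junction receptor, at 606, 527, 541 and 563 CPM and then 703, 804, 844 and 880 CPM (0.53 ± 0.10, adjusted p = 0.0466). In all 3 genes the 4 ZT16 libraries lay above the 4 ZT4 libraries. Their calls were near the threshold: they were kept in 10, 9 and 6 of 18 alternatives, and leaving out Ctrl ZT16 replicate 2 alone gave adjusted p of 0.0968 for Plscr4, 0.0968 for Eln and 0.189 for Heg1. Crispld1 (1.13 ± 0.20, adjusted p = 0.0328) and Egfl6 (1.88 ± 0.34, adjusted p = 0.0421) also rose, and were kept in 4 of 18 and 4 of 16. Egfl6 was at 35.1% of its level in non-endothelial nuclei.

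Among the genes that fell, Nrxn3, a neurexin and so a binding partner of neuroligins, was at 86.7, 85.2, 77.6 and 65.3 CPM at ZT4 and, at ZT16, 24.5, 11.5, 57.4 and 57.0 CPM (-1.28 ± 0.19, adjusted p = 0.0159). The 4 ZT16 libraries lay below the 4 ZT4 libraries, and Ctrl lay lower than cKOt at ZT16. Its level in the members was 65.8% of that in non-endothelial nuclei, and without Ctrl ZT16 replicate 2 the adjusted p was 0.0612. The protease gene Adam19 (-0.91 ± 0.16, adjusted p = 0.0433) and the long noncoding RNAs 4930542D17Rik (-1.01 ± 0.17, 0.0328) and Mir100hg (-0.80 ± 0.15, 0.0466) fell as well, each at over 100% of the non-endothelial level and without overlap of the time points. The call of 4930542D17Rik was kept in 5 of 18 alternatives, with changes of -1.11 to -0.90 over them, and was lost with DESeq2 (adjusted p = 0.0561), without Scrublet doublets (0.0916) and with each nucleus thinned to 1000 UMIs (0.163). In all, 22 of the 25 called genes had no overlap between time points, and 12 were above the non-endothelial level. In 23 of the 25 the change in non-endothelial nuclei had the same sign.

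**Figure D3:**
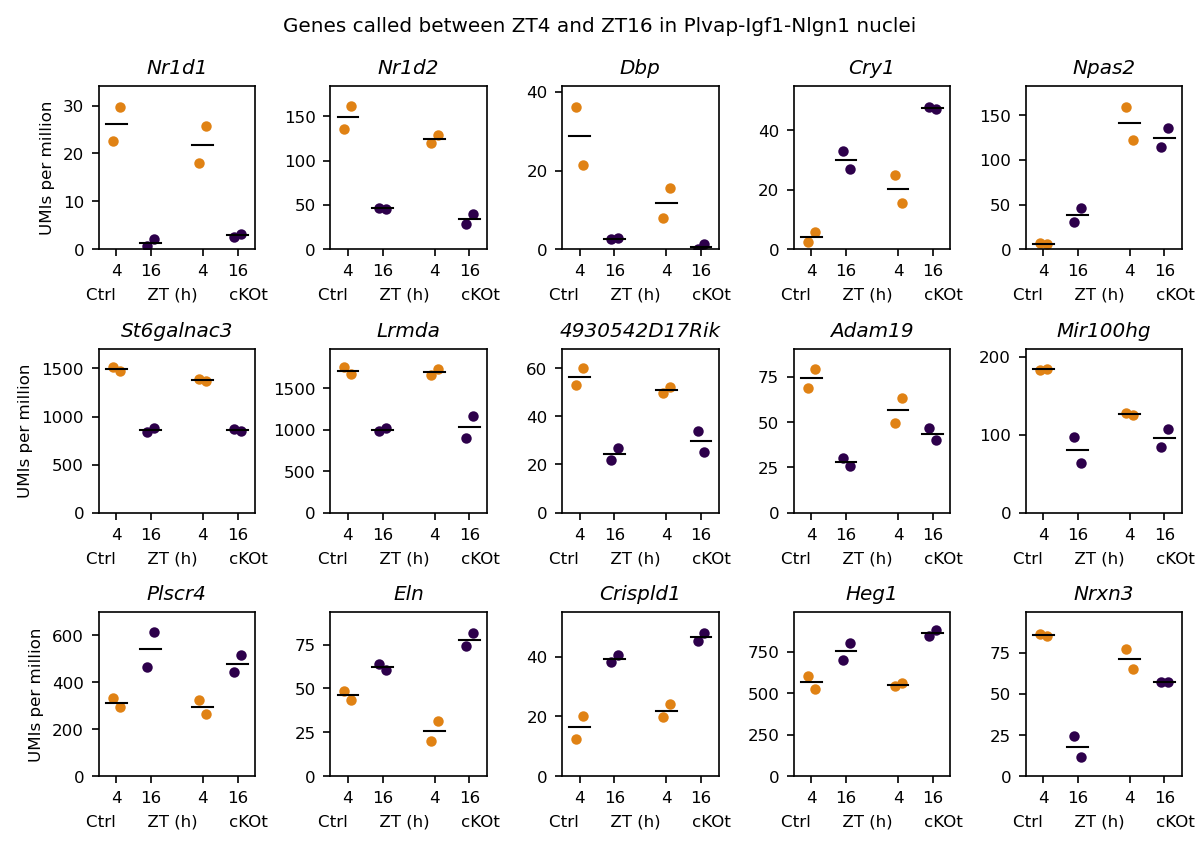
Levels in the members of 15 genes called between ZT4 (orange) and ZT16 (dark), in CPM on axes from 0, with a point for each library, a bar for the group mean and Ctrl left of cKOt. Nr1d2, Nr1d1 and Dbp were low at ZT16 in both genotypes, Cry1 was high, and Npas2 was high in cKOt at both time points.

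The remaining called genes included several of tubule cells at under 50% of the non-endothelial level, among them the proximal tubule genes Slc5a12 (473, 470, 485 and 385 CPM at ZT4 and, at ZT16, 193, 253, 255 and 343 CPM) and Cubn, an endocytic receptor gene. Alk (-1.81 ± 0.29, adjusted p = 0.0279) and Ctnna2 (-1.34 ± 0.22, adjusted p = 0.0281) also fell at under 50% of that level, and Wwox (-0.65 ± 0.11, 0.0331) at 72.7% of it. These calls were kept in 10 of 17 alternatives for Alk, 12 of 18 for Ctnna2, 10 of 18 for Wwox and 9 of 18 for Cubn, and without Scrublet doublets the change was -1.41 for Alk (adjusted p = 0.273), -1.37 for Ctnna2 (0.181) and -0.60 for Cubn (0.297). Slc5a12 fell by 0.81 ± 0.13 (adjusted p = 0.0279), was at 35.5% of the non-endothelial level, and fell by 0.44 with an adjusted p of 0.412 without Scrublet doublets. The summed proximal tubule markers of the members ran from 2125 to 2935 CPM at ZT4 and, at ZT16, from 1910 to 2382 CPM, against a mean of 6170 CPM in non-endothelial nuclei, and none of the 6 was at 0. Other cell markers leaned the other way: in the members the sum of 4 thick ascending limb genes ran from 567 to 1445 CPM at ZT4 and, at ZT16, from 1357 to 1637 CPM (median log2 change 0.721, 3 with an unadjusted p under 0.05), that of 5 collecting duct genes from 75.5 to 125 and from 115 to 211 CPM (0.780, 4) and that of 4 podocyte genes from 220 to 370 and from 359 to 434 CPM (0.619, 1), with 0 called by edgeR in each. Unlike the tubule sums, the podocyte sum was higher in the members (mean 342 CPM) than in non-endothelial nuclei (57.0 CPM), at 599% of their level, and its source was not tested. The part of RNA from tubule or other cells in the time changes, those of Egfl6 and Sgcz included, was not tested. Apart from the clock list, Nrxn3, Slc5a12 and Cubn, no gene of the lists described above was called between time points. Of 10 vein genes tested, 0 were called by edgeR (2 with an unadjusted p under 0.05), of 14 IGF genes 0 (6), and of 14 semaphorin, neuropilin and plexin genes 0 (5). Likewise 0 were called of 13 genes of TGF-beta and BMP signalling (7), of 12 glucocorticoid-responsive genes (2) and of 13 flow-responsive and vasoactive genes (3). Of the 9 pan-endothelial genes outside the rule, 0 were called (5). Their sum in the members ran from 6996 to 8541 CPM at ZT4 and from 8725 to 9567 CPM at ZT16, and its part in the time changes was not tested. Over all 13120 genes tested, 0.191% were called and 1222 had an unadjusted p under 0.05.

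Id1, a target of BMP signalling, did not pass the test (0.84 ± 0.17, adjusted p = 0.0741), with 37.2, 44.2, 26.9 and 43.7 CPM at ZT4 and, at ZT16, 63.9, 60.6, 78.3 and 76.5 CPM. Its time points did not overlap, as for 2.58% of all genes tested in that direction. Separated in the same way were Reln, at 38.3, 54.3, 67.6 and 30.5 CPM at ZT4 and, at ZT16, 78.1, 88.2, 91.4 and 104 CPM (0.93 ± 0.21, adjusted p = 0.102), and Thbd, the thrombin receptor thrombomodulin (0.74 ± 0.18, adjusted p = 0.152), and neither passed.

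Within genotypes, 22 of 12669 genes were called between time points in Ctrl (0.174%), 5 higher (0.0395%) and 17 lower (0.134%), and 1 of 12459 in cKOt (0.00803%; 778 at an unadjusted p under 0.05), which was Nr1d2. The 3 smallest p in each direction in Ctrl were those of Nr1d2 (-1.70 ± 0.21), Nrxn3 (-2.24 ± 0.28) and Nr1d1 (-4.24 ± 0.54), and of Npas2 (2.62 ± 0.36), Cry1 (2.75 ± 0.42) and Rhobtb1 (1.30 ± 0.20). In cKOt, Nr1d2 fell by 1.84 ± 0.22 (adjusted p = 0.00636). The genotypes were then compared directly: the difference between the genotypes in their time change passed for 0 of 13120 genes (563 at an unadjusted p under 0.05; DESeq2 called 1). For Npas2 that difference was -2.78 ± 0.42 (adjusted p = 0.134). The Ctrl count fell to 5, 0, 3 and 0 without Ctrl ZT4 replicates 1 and 2 and Ctrl ZT16 replicates 1 and 2, and was 40 and 37 without cKOt ZT4 replicates 1 and 2. The cKOt count was 0 without cKOt ZT4 replicate 2 or cKOt ZT16 replicate 1, 2 without either Ctrl ZT4 replicate, and 3 without cKOt ZT4 replicate 1 or cKOt ZT16 replicate 2.

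The second question was whether deleting the clock in tubules went with a change in these endothelial nuclei. Averaged over time points, 25 of 13120 genes were called between cKOt and Ctrl (0.191%), 17 higher (0.13%) and 8 lower (0.061%) in cKOt, and 720 had an unadjusted p under 0.05. All but 1 of the 25, the exception being Dlc1, were at a lower level in the members than in the non-endothelial nuclei of the same libraries, and 17 were under 50% of it. In 23 of the 25 the change in non-endothelial nuclei had the same sign. The genotypes did not overlap for 22 of the 25, and over all genes tested 1.35% lay entirely higher and 1.29% entirely lower in cKOt. Without Scrublet doublets 9 genes were called, and with each nucleus thinned to 1000 UMIs 7. The count was 15 without Ctrl ZT4 replicate 1, Ctrl ZT4 replicate 2 or cKOt ZT4 replicate 1, and 10 without Ctrl ZT16 replicate 2.

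Npas2 led these genes: the Ctrl libraries were at 6.76, 5.68, 30.4 and 45.8 CPM (ZT4 replicates, then ZT16) and the cKOt libraries at 159, 123, 115 and 135 CPM. The genotypes did not overlap, and the log2 difference was 3.11 ± 0.20 (adjusted p = 2.58e-06), beside 2.92 ± 0.11 in non-endothelial nuclei, of whose level the members held 32.6%. Hao2, a peroxisomal hydroxyacid oxidase gene, was at 9.01, 8.20, 9.04 and 6.06 CPM in Ctrl and 51.7, 93.4, 70.5 and 85.6 CPM in cKOt (3.23 ± 0.25, adjusted p = 1.36e-05; 45.6% of the non-endothelial level). Cyp2a4, a steroid hydroxylase gene, was at 16.9, 22.1, 22.6 and 14.8 CPM in Ctrl and 1.99, 2.40, 1.74 and 2.59 CPM in cKOt (-3.06 ± 0.36, adjusted p = 0.00204; 80.3%). These 3 genes were called in all 18 alternatives.

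The other genes higher in cKOt included Rhobtb1 (1.16 ± 0.14, adjusted p = 0.00204), Ddc, the aromatic amino acid decarboxylase (1.49 ± 0.19, 0.00462), Cltrn (0.97 ± 0.15, 0.0115), Folh1 (1.74 ± 0.29, 0.023) and Gatm, of creatine synthesis (0.87 ± 0.15, 0.0254), at 35.5% to 57.3% of the non-endothelial level. Among those lower, Aspa (-1.08 ± 0.15, adjusted p = 0.00581), Ces1d (-1.84 ± 0.30, 0.0229) and Cyp4b1 (-0.90 ± 0.16, 0.0319) were at 46.7% to 53.4% of that level. Cyp4b1, of fatty acid oxidation, was the only called gene of the capillary list, and without Scrublet doublets its change was -0.58 (adjusted p = 0.542). Further genes named by the same rule were Fhad1, Col6a6 and Nckap5, higher in cKOt, and Col27a1, Odc1 and Prkag3, lower, at 24.7% to 81.5% of the non-endothelial level. Several calls were lost in most alternatives: Prkag3 was kept in 2 of 13 (DESeq2 adjusted p = 0.166), Odc1 in 6 of 18, and Col27a1, Cyp4b1 and Gatm in 8 of 18, while Fhad1 was kept in 16 of 17, Col6a6 in 15 of 17 and Nckap5 in 13 of 18. The 6 proximal tubule marker genes, which served as a measure of tubule RNA in the members, lay at 35.5% to 44.7% of their non-endothelial level, and their sum ran from 1910 to 2935 CPM in Ctrl and from 2125 to 2847 CPM in cKOt. The genes of the thick ascending limb were at 34.1% of the non-endothelial sum, those of the distal and connecting tubule at 24.1% and those of the collecting duct at 38.5%, and in the other endothelial nuclei the proximal tubule genes stood at 48.2%. Their part in the genotype changes was not tested.

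**Figure D4:**
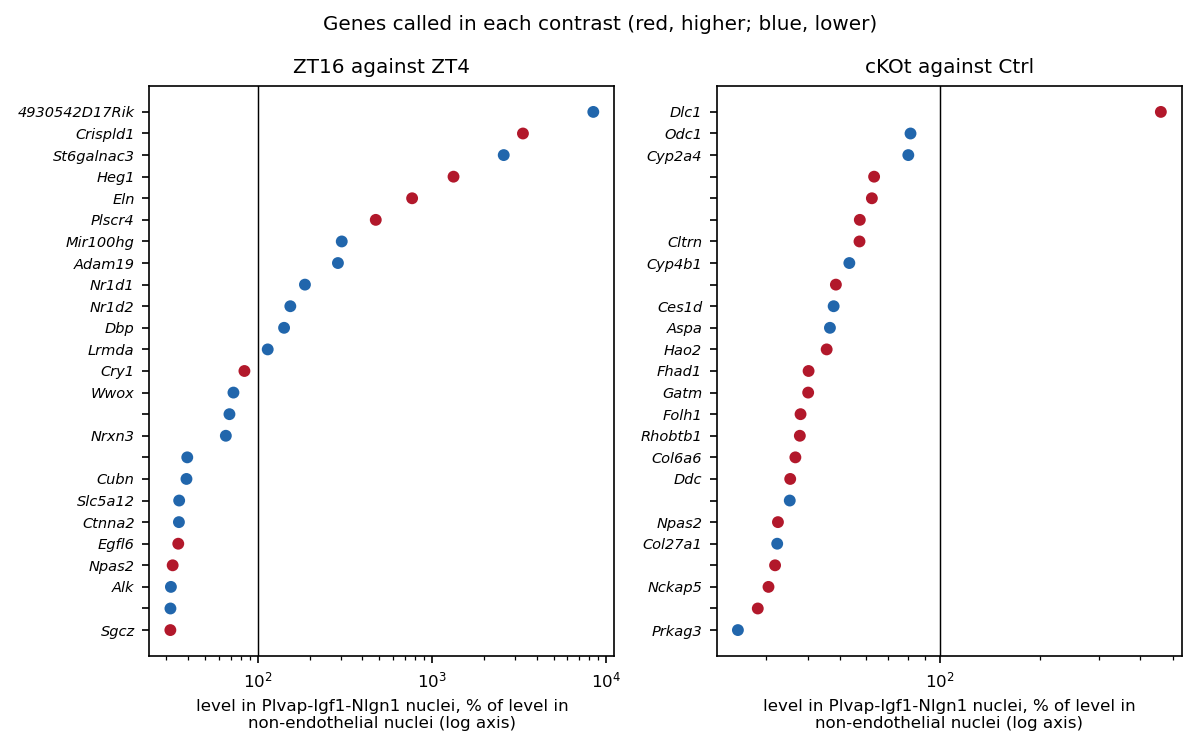
Level of each called gene in the members as a percentage of its level in non-endothelial nuclei (log axis, line at 100%), for time (left) and genotype (right), in red where higher and blue where lower at ZT16 or in cKOt, with a label where the gene is named in the text. Of the genes called by genotype all but Dlc1 lie below 100%, whereas 12 of the 25 called by time lie above it.

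Dlc1, a GTPase-activating protein, was the one gene called by genotype that was higher in the members than in non-endothelial nuclei, at 461% of their level. The Ctrl libraries were at 647, 895, 699 and 628 CPM and the cKOt libraries at 1042, 1242, 1329 and 1337 CPM, without overlap (0.78 ± 0.11, adjusted p = 0.00876). In non-endothelial nuclei the difference was -0.11 ± 0.13. It was called in 17 of 18 alternatives, the exception being the fit without Ctrl ZT16 replicate 2 (0.76, adjusted p = 0.0727).

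Arntl, the gene targeted in tubules, was 0.84 ± 0.17 log2 higher in the cKOt members (62.0, 41.6, 104 and 115 CPM in Ctrl and 150, 92.2, 154 and 145 CPM in cKOt), which overlapped and did not pass (adjusted p = 0.0768). In non-endothelial nuclei it was 1.92 ± 0.13 higher in cKOt. Counts of the 3′ end of the transcript do not show whether the floxed part was lost, so this does not check the deletion.

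At the single time points, 11 of 12280 genes were called between genotypes at ZT4 (0.0896%), 8 higher (0.0651%) and 3 lower (0.0244%) in cKOt, and 2 of 12775 at ZT16 (0.0157%). At ZT4 the 3 smallest p among genes higher were those of Npas2 (4.50 ± 0.32), Rhobtb1 (1.87 ± 0.20) and Hao2 (3.11 ± 0.36), and the genes lower were Aspa (-1.56 ± 0.21), Cyp2a4 (-3.10 ± 0.52) and Cyp4b1 (-1.32 ± 0.22). Of these last 3, Aspa was kept in 11, Cyp2a4 in 5 and Cyp4b1 in 7 of 16 alternatives, and with at least 10 UMIs in both replicates the adjusted p was 0.0517 for Cyp2a4 and 0.0535 for Cyp4b1. At ZT16 the genes were Hao2 (3.35 ± 0.35) and Npas2 (1.72 ± 0.24). None of these genes was above the non-endothelial level. The ZT4 count was 2 without Ctrl ZT4 replicate 2, 7 without cKOt ZT4 replicate 1 and 6 without either Ctrl ZT16 replicate. The ZT16 count was 14 without cKOt ZT4 replicate 1, 6 without either Ctrl ZT4 replicate, 4 without cKOt ZT16 replicate 1, 3 without cKOt ZT4 replicate 2 and 1 without Ctrl ZT16 replicate 1.

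To ask whether the members responded differently from the rest of the endothelium, the change in members and in other endothelial nuclei was compared within the same libraries, with the library as a block. The time change differed for 2 of 13110 genes (0.0153%), Ednrb and Sgcz, and the genotype change for 2 (0.0153%), Dlc1 and Lrriq1. Over the other endothelial nuclei alone 177 of 16371 genes were called by time (1.08%) and 89 by genotype (0.544%), in a set with 12633 nuclei.

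Ednrb, the receptor through which endothelin releases nitric oxide from endothelium, fell with time in the other endothelial nuclei and did not pass the test in the members. It was at 422, 440, 402 and 403 CPM at ZT4 and, at ZT16, 413, 388, 369 and 371 CPM in the members (log2 change -0.11, adjusted p = 0.802). In the other endothelial nuclei it was at 286, 254, 298 and 256 CPM at ZT4 and, at ZT16, 100, 140, 124 and 139 CPM (-1.12, adjusted p = 0.00154). The groups of the other nuclei did not overlap, while those of the members did, and the difference of the changes was 1.02 ± 0.12 (adjusted p = 0.000615).

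The other endothelial nuclei were also split by UMIs of Ehd3 and Sox17. These sets need not match vessel segments, and 1430 nuclei with either gene met the marker counts of the members. In plain CPM, the mean of Ednrb moved from 403 to 207 CPM in Ehd3-positive nuclei and from 181 to 135 CPM in Sox17-positive nuclei. In the remaining endothelial nuclei it moved from 234 to 79.1 CPM. Within the members, it moved from 446 (369 to 524) to 534 (470 to 580) CPM where Nlgn1 was found and from 378 (338 to 453) to 265 (241 to 278) CPM where it was not. Thus the time points overlapped in the members with Nlgn1, and in those without it every ZT16 library lay below every ZT4 library. The difference from the other endothelial nuclei was called in 16 of 17 alternatives and ended with the members without Nlgn1 alone (0.60, adjusted p = 0.272). In non-endothelial nuclei Ednrb was at 6.42 CPM at ZT4 and 4.79 CPM at ZT16, near 0 beside these values.

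Sgcz, a sarcoglycan gene, was at 59.7, 89.0, 30.8 and 67.7 CPM at ZT4 and, at ZT16, 175, 268, 74.8 and 155 CPM in the members, and at 146, 202, 69.5 and 107 CPM and then 248, 223, 69.9 and 137 CPM in the other endothelial nuclei. The difference of the changes was 1.06 ± 0.16 (adjusted p = 0.0197). It was kept in 10 of 17 alternatives, and was 0.07 (adjusted p = 1) without Scrublet doublets and -0.17 when thinned to 1000 UMIs. Leaving out Ctrl ZT4 replicate 1, Ctrl ZT4 replicate 2 or cKOt ZT16 replicate 2 gave adjusted p of 0.0795, 0.111 and 0.164. Members were at 31.6% of the non-endothelial level.

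For genotype, Dlc1 in the other endothelial nuclei was at 1059, 1078, 781 and 914 CPM in Ctrl and 1064, 883, 961 and 1039 CPM in cKOt, which overlapped, whereas in the members it was higher in cKOt, as given above. The difference of the changes was 0.75 ± 0.12 (adjusted p = 0.031), which was kept in 11 of 17 alternatives. It was 0.82 (adjusted p = 0.0526) without Scrublet doublets, 0.67 (0.233) without Ctrl ZT4 replicate 1, 0.65 (0.203) without cKOt ZT4 replicate 2, 0.68 (0.101) without Ctrl ZT16 replicate 2, 0.77 (0.135) without cKOt ZT16 replicate 2 and 0.59 (0.181) with the members without Nlgn1. In plain CPM, the mean of Dlc1 in members with Nlgn1 was 604 CPM in Ctrl and 1204 CPM in cKOt, and in those without it 824 and 1252 CPM. In the sets split by Ehd3 and Sox17 it was 828 ± 31.6 and 1034 ± 129 CPM in Sox17-positive nuclei, 1245 ± 145 and 1367 ± 68.4 CPM in Ehd3-positive nuclei and 833 ± 200 and 784 ± 118 CPM in the remaining endothelial nuclei. The members were not tested against each of these sets. Lrriq1 was at 12.4, 13.2, 14.2 and 20.9 CPM in the Ctrl members and 30.8, 54.5, 20.9 and 35.7 CPM in the cKOt members, with means of 52.7 CPM in Ctrl and 42.4 CPM in cKOt in the other endothelial nuclei. Its difference of 1.54 ± 0.24 (adjusted p = 0.031) was kept in 9 of 17 alternatives, and was 1.63 (adjusted p = 0.997) without Scrublet doublets and -0.14 when thinned. With differences of 1.42 to 1.47, it did not pass without Ctrl ZT4 replicate 1 (0.192), Ctrl ZT4 replicate 2 (0.14), cKOt ZT4 replicate 2 (0.203), Ctrl ZT16 replicate 1 (0.0857) or cKOt ZT16 replicate 2 (0.184).

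**Figure D5:**
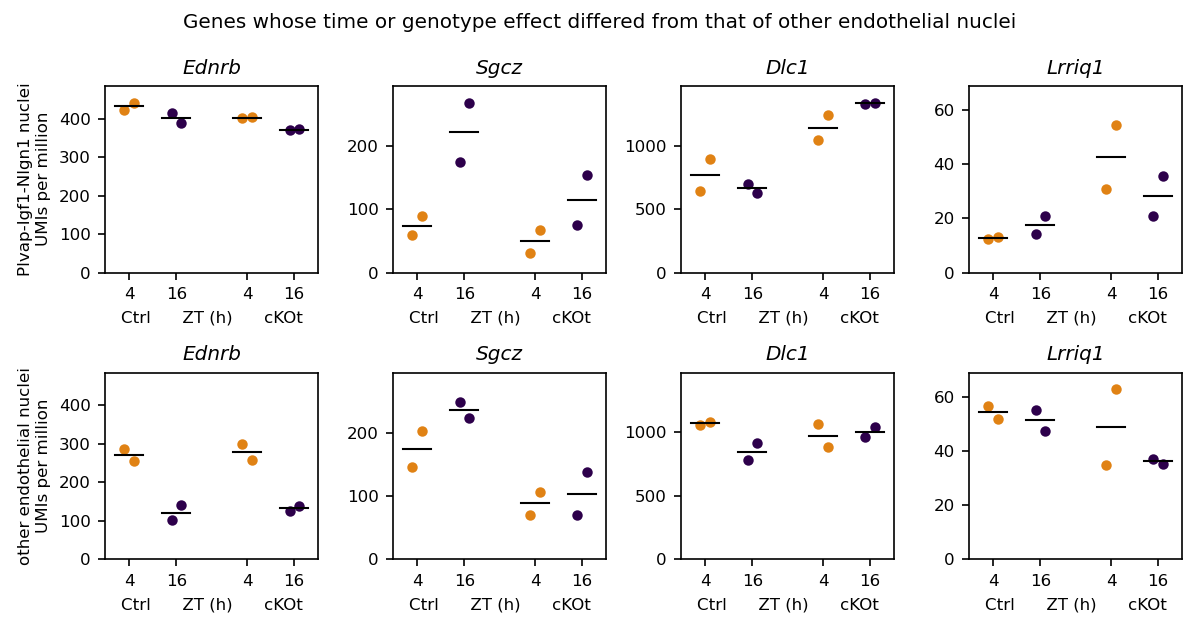
Levels of Ednrb, Sgcz, Dlc1 and Lrriq1 in the members (upper row) and in the other endothelial nuclei of the same libraries (lower row), in CPM on axes from 0, with points for libraries at ZT4 (orange) and ZT16 (dark) and bars for group means. Ednrb in the other endothelial nuclei lay between 254 and 298 CPM at ZT4 and between 100 and 140 CPM at ZT16 and stayed between 369 and 440 CPM in the members.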

How the data were processed

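Nuclei from 8 frozen mouse kidneys were profiled by 10x 3′ v3.1 single-nucleus RNA sequencing after DAPI sorting. The authors made the deposited UMI counts per gene and barcode with Cell Ranger 7.1.0, and the processing notes also name bcl2fastq 2.20, Seurat 5 and GRCm39. Quality control here kept nuclei from 500 genes and 800 UMIs upward whose mitochondrial share was 2% or less. Scrublet doublets were marked but stayed in the main results. The members and gene lists were chosen with earlier results of these data known. Member UMIs were summed per library and fitted in edgeR 4.0.16 (quasi-likelihood, TMM, 4 groups), with genes at 5 or more UMIs in both replicates of a group and Benjamini-Hochberg adjustment at 0.05. Members and other endothelial nuclei were compared over 16 sums with the library as a block. Named genes were the clock genes, the 12 called genes with the smallest p per direction without overlap of libraries (3 in pairwise contrasts), called genes of the other lists, and the 20 highest and 10 lowest level ratios; some of these are not reported here. DESeq2 1.42.0, other filters, thinning, stricter members and each library left out were alternatives, of which the Nlgn1 subsets, the genotype difference in time change and the genotype difference from other endothelial nuclei were added after seeing the data. The fits were also run on simulated data, in which only genes well counted in every library were changed, all by the same size. Low genes and small changes were thus not covered. Counting depth limits low genes.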

Additional observations from a re-analysis of the deposited data

Results flagged for a closer look

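The change with time or genotype differed between the members and the other endothelial nuclei, by the test of the difference itself with the library as a block, for 4 genes. Ednrb had a difference of the log2 time changes of 1.02 ± 0.12 (SE; edgeR adjusted p = 0.000615), since it fell at ZT16 in the other endothelial nuclei and did not pass in the members. Within the members its mean went from 446 to 534 CPM with Nlgn1 and from 378 to 265 CPM without it, and with the latter alone the difference was 0.60 (adjusted p = 0.272). Sgcz had a difference of 1.06 ± 0.16 (adjusted p = 0.0197), but 0.07 (adjusted p = 1) without Scrublet doublets, -0.17 when thinned to 1000 UMIs and 0.02 with the members with Nlgn1, and was kept in 10 of 17 alternatives. Dlc1 had a difference of the log2 genotype changes of 0.75 ± 0.12 (adjusted p = 0.031), which was kept in 11 of 17. Lrriq1 had a difference of 1.54 ± 0.24 (adjusted p = 0.031), kept in 9 of 17, while its genotype change in the members alone did not pass. The causes were not tested.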

How the results depend on the processing

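The number of called genes moved with the processing, and the cause was not tested. By time 25 genes were called, and 226 with no low-count filter, 9 with a marker sum of at least 4, and 8 to 39 with 1 library left out. By genotype 25 were called, and 140 with no low-count filter, 9 without Scrublet doublets, 7 when thinned to 1000 UMIs, 14 with a marker sum of at least 4, and 10 to 20 with 1 library left out. For time in Ctrl, 22 became 161 with no filter, 4 without doublets, 9 when thinned and 0 to 40 with 1 library left out, and for time in cKOt 1 became 5 with DESeq2, 104 with no filter, 2 without doublets and 0 to 3. For genotype at ZT4, 11 became 18 with DESeq2, 133 with no filter, 6 with at least 10 UMIs, 2 without doublets, 2 when thinned, 5 with a marker sum of at least 4 and 2 to 15, and at ZT16 2 became 9 with DESeq2, 70 with no filter, 1 without doublets and 1 to 14. The genotype difference in time change, called for 0 genes, was called for 1 with DESeq2, 57 with no filter and 0 to 3. Between members and other endothelial nuclei, the 2 time calls became 51 with no filter, 1 without doublets, 6 when thinned, 1 with a marker sum of at least 4, 1 with members without Nlgn1 and 1 to 4 with 1 library left out, and the 2 genotype calls became 79, 0, 1 when thinned, 7 with members with Nlgn1, 1 with members without it and 0 to 11.

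The replicate numbers do not mark shared animals, and same-numbered libraries deviated together with correlations of -0.084 to 0.181. With the replicate number as a block, 34 genes were called for time in Ctrl, 2 for time in cKOt, 18 for genotype at ZT4 and 5 at ZT16, and 30 each for averaged time and genotype. With 1 library left out, the time change over all endothelial nuclei ran from 0.07 to 0.22 for Plvap, -0.21 to -0.02 for Nlgn1, -0.14 to 0.10 for Sema3d and -0.47 to -0.07 for Igf1, and Sema3d was at 0.034 without doublets. The time difference in the share of members ran from -0.0511 to 1.73 percentage points and the genotype difference from -1.40 to 0.380 with 1 library left out, and the latter was -1.83 when thinned.

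Changes of sign were found for Sgcz (-0.17) and Lrriq1 (-0.14) when thinned, and otherwise for clock genes that were not called in that comparison. Without doublets Rorb (0.51) and Bhlhe40 (-0.023) by time and Cry2 by genotype (-0.076) changed sign. When thinned, Per3 by time (0.29) and Nr1d1 (-0.35), Nr1d2 (0.17) and Bhlhe40 (-0.25) by genotype did. With a marker sum of at least 4, Per1 by time (-0.014) and Hlf (-0.039) and Bhlhe40 (-0.0072) by genotype did. With members with Nlgn1, Per1 by time (-0.36) and Hlf by genotype (-0.059) did, and with members without it Per3 by time (0.40) and Bhlhe40 by genotype (-0.20). With 1 library left out, the time change ran from -0.27 to 0.75 for Per1, -0.27 to 0.14 for Per3 and -2.70 to 0.54 for Rorb, and the genotype change from -0.65 to 0.39 for Per1, -0.14 to 0.44 for Per2, -0.11 to 0.41 for Cry2, -0.060 to 0.19 for Hlf and -0.068 to 0.14 for Bhlhe40.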
